A study of Homo sapiens with 12 samples.

Results

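The aminoacyl-tRNA synthetase genes were taken as the listed symbols made of a letter followed by ARS, with or without a final 2, plus EPRS, FARSA and FARSB. The rule found 37 genes of 12931 listed, all with reads in every library. Of these, 20 are treated here as cytosolic and 17, whose symbols end in 2, as mitochondrial. RNA sequencing covered 3 groups of 4 libraries, all from WM1366, a long-established melanoma cell line of human skin origin that is driven by mutant NRAS. The control group is labelled with a control diet, and the groups R1 and R2 with a diet that combined MEK and CDK4/6 inhibitors. The series design speaks of xenograft tumours that progressed, whereas the sample protocols describe melanoma cells grown in Tu2% medium. Their treatment text gives palbociclib, a CDK4/6 inhibitor, at 0.1 µM and PD0325901, a MEK inhibitor, at 1 nM for every library, control included. What separates R1 from R2, how many animals or cultures stand behind the libraries, and whether mouse host reads were removed are not given in the sources used here. P-values therefore measure the spread between these libraries, which may be technical.

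Each aminoacyl-tRNA synthetase joins an amino acid to the tRNAs that carry it to the ribosome, so the family sets the supply of charged tRNA. Most amino acids have a pair of nuclear genes, for an enzyme of the cytosol and an enzyme of the mitochondrial matrix, where the respiratory chain subunits coded by the mitochondrial genome are made. GARS and KARS serve both compartments from a single gene, EPRS charges glutamate and proline in the cytosol, and FARSA and FARSB code for the subunits of the cytosolic phenylalanine enzyme. No mitochondrial glutamine enzyme exists in this family: EARS2 charges that tRNA with glutamate, and the amidotransferase of GATB, GATC and QRSL1 converts it. A set of cytosolic enzymes (EPRS, LARS, IARS, MARS, QARS, RARS, KARS and DARS) is held in the multisynthetase complex with the scaffold proteins AIMP1, AIMP2 and EEF1E1. Several cytosolic synthetase genes are known targets of ATF4, the transcription factor of the amino acid stress response.

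The DNA before the start sites is shown for the genes whose changes open the results below. HARS and HARS2, the cytosolic and mitochondrial histidine enzymes, are transcribed away from each other on chromosome 5, and both were higher in R1. The 84 bases between their RefSeq start sites (GRCh38.p14, chr5:140691371-140691454, plus strand, GC 59.5%) are shown because both genes start there, and in GENCODE 29 the spans of the genes overlap.
HARS to HARS2: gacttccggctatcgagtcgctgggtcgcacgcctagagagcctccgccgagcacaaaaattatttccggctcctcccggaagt
MARS2, the mitochondrial methionine enzyme, rose in R1 alone of the comparisons with control. Its 250 upstream bases (chr2:197705119-197705368, plus strand) hold a palindromic form of the motif of NRF1, a factor known for mitochondrial genes, as the longer run of capitals, and CACGTG, the E-box, as the shorter run.
MARS2: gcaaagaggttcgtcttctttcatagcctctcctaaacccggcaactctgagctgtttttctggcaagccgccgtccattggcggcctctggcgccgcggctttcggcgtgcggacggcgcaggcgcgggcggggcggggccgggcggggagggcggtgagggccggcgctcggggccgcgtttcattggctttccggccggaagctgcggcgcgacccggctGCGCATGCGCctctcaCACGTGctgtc
AARS and IARS, the alanine and isoleucine enzymes, fell in R2. Both hold a match to TGATGNAA, the core of the C/EBP-ATF element to which ATF4 binds. The bases upstream of IARS (chr9:92293698-92293947, minus strand) are shown, where capitals mark TTGCATCA, the reverse complement of the match.
IARS: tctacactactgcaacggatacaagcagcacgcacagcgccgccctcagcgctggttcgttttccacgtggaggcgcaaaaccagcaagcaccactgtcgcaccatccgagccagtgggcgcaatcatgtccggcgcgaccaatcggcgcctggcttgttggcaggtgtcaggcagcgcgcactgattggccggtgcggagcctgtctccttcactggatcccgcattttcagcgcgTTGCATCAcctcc
A RefSeq promoter was matched for 30 members, and each motif was sought on both strands of the 250 bases before any listed start. TGATGNAA stood in 4 of them (AARS, GARS, IARS and YARS2), which is 13.3%, against 3.89% of 27305 genes with a promoter in the table. CACGTG stood in 3 members (EARS2, IARS and MARS2) against 7.73% of all genes. The palindromic NRF1 motif, of the 10 letters in the longer run of capitals above, stood in MARS2 alone of the matched members, against 1.28% of all genes. CCAAT stood in 16 members (53.3%) against 37.0%. The motifs do not overlap one another in the stretches printed. These are matches of letters and not measured binding sites.

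Depth ranged from 20003891 to 39009384 recovered reads per library in the listed genes, and a member had from 25 to 13718 reads in a library. Values are normalised read counts on a scale close to CPM, given as mean ± SD with n = 4, or for the 4 libraries in replicate order. A gene rose or fell where limma, fitted over all 12931 genes, gave an adjusted p under 0.05. A pair of numbers in brackets is the log2 fold change and its adjusted p. Of 13 melanoma markers 5 (MITF, PMEL, AXL, CSPG4 and MCAM) had values, summing to 2337 to 2615 in control, 1494 to 1726 in R1 and 2240.1 to 2498 in R2. AXL and MCAM make up most of that sum. In R1 MITF, AXL and MCAM fell while PMEL (2.24, adjusted p = 1.5e-06) and CSPG4 (1.65, adjusted p = 0.00191) rose. In R2 MITF (-0.70, adjusted p = 0.00928) and CSPG4 (-1.15, adjusted p = 0.027) fell and PMEL (0.66, adjusted p = 0.0283) rose, while AXL and MCAM did not pass. Endothelial markers (4 of 10 with values) summed to 133 to 172 in control, 375 to 499 in R1 and 126 to 157 in R2. TIE1 makes up most of that sum, at a mean of 139 in control and 394 in R1. VWF (1.15, adjusted p = 0.00165) and EGFL7 (2.03, adjusted p = 1.3e-06) also rose in R1, while PECAM1 did not pass (0.15, adjusted p = 0.744). EGFL7 (-2.99, adjusted p = 3.4e-08) and PECAM1 (-1.09, adjusted p = 0.0332) fell in R2, while TIE1 and VWF did not pass there. Fibroblast and pericyte markers (5 of 9) summed to 233 to 327 in control, 86.2 to 156 in R1 and 100.3 to 331 in R2, most of it COL1A1. They did not move together: in R1 COL1A1 fell and FAP rose, while LUM, PDGFRB and RGS5 did not pass. In R2 LUM and PDGFRB fell, while COL1A1, RGS5 and FAP did not pass. Sums were low for keratinocyte markers (1 of 5, at most 34.7) and leukocyte markers (1 of 14, at most 6.19). No red cell marker of 5 had a value. KRT10, the keratinocyte marker with values, rose in R1 (0.65, adjusted p = 0.00328). CSF1R, the leukocyte marker with values, fell in R2 (-1.20, adjusted p = 0.0193). Transcripts of the mitochondrial genome took 5.86% to 10.9% of reads in control, 2.17% to 3.28% in R1 and 4.02% to 9.63% in R2. The part of these shifts in the results on synthetase genes was not tested, and in bulk RNA fewer cells of a type and less RNA per cell cannot be told apart.

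In R1 the mitochondrial histidine and methionine enzymes rose most and the mitochondrial threonine enzyme and GARS, the glycine enzyme of both compartments, fell most. The comparison with control asks which of these transcripts differ between the diets. Of the 37 genes 7 rose and 8 fell, or 40.5%, against 43.8% of all 12931 genes, so the family was called about as often as other genes. The split was 4 up and 3 down of 20 cytosolic genes and 3 up and 5 down of 17 mitochondrial genes, beside 22.4% of all genes up and 21.4% down. The median log2 fold change was 0.03 over the members and 0.01 over all genes, and the median size regardless of sign was 0.25 and 0.34. Only HARS2 and TARS2 changed more than 2-fold (10.5% of all genes did). Called with ranges that did not overlap were 12 of the 37 members, or 32.4%, against 36.8% of all genes.

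**Figure D1:**
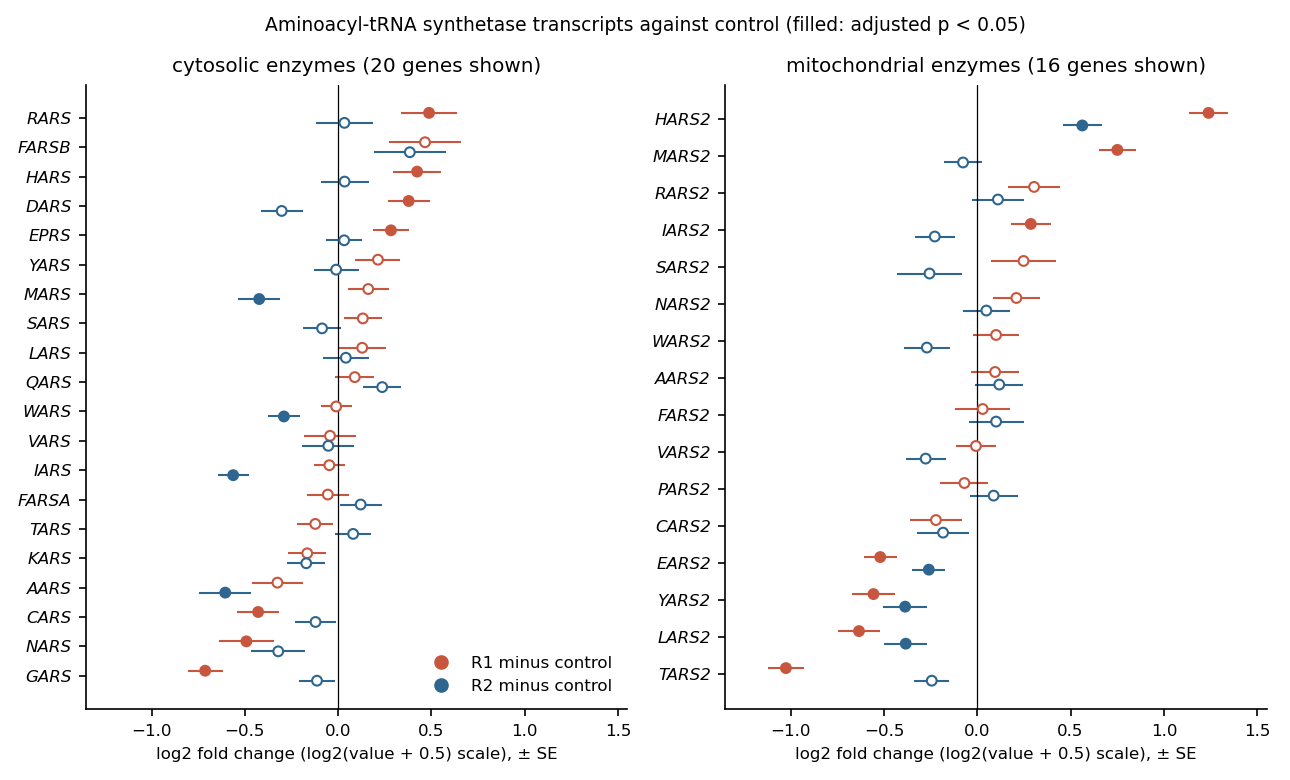
Log2 fold change (± SE) of 36 synthetase genes in R1 (red) and R2 (blue) against control, cytosolic genes on the left and mitochondrial on the right, with filled points at an adjusted p under 0.05. The spread is wider for the mitochondrial genes in R1, from -1.03 for TARS2 to 1.24 for HARS2. In R2 the mitochondrial genes run from -0.39 for YARS2 to 0.56 for HARS2. Some genes, such as AARS, IARS, MARS and WARS, lie farther from 0 in R2 than in R1.

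HARS2 (chromosome 5, 140691426 to 140699318, plus strand, GRCh38) was at 40.7, 48.2, 49.2 and 47.1 in R1 and at 19.3, 18.5, 20.9 and 18.5 in control. All R1 libraries lay above all control libraries, by 2.40-fold in the means (log2 change 1.24 ± 0.11 SE, adjusted p = 6.6e-07). HARS (minus strand of the same chromosome, 140673904 to 140691862) was at 161, 140.0, 219 and 173 in R1 and at 147, 133, 122 and 110.0 in control. HARS rose less, and R1 replicate 2 lay below control replicate 1 (log2 change 0.42 ± 0.13 SE, adjusted p = 0.0159). In GENCODE 29 the exons of both genes share 402 bases on opposite strands, 14.2% of those of HARS2 and 9.49% of those of HARS. The TruSeq RNA v2 kit does not mark the strand, so reads from these bases cannot be assigned to either gene with certainty. The ratio of HARS2 to HARS was 0.132 to 0.171 in control, 0.225 to 0.344 in R1 and 0.197 to 0.257 in R2. It was above control in every library of both groups. The two-sided exact permutation p was 0.0286 for each, the smallest that 4 against 4 allows, and 0.0381 adjusted over 4 ratio tests. Those 4 tests are of HARS2 to HARS and of FARSA to FARSB. The same test was run on 14 pairs of a cytosolic and a mitochondrial enzyme, which the adjustment does not cover. Other pairs also reached an exact permutation p of 0.0286, so that p is not particular to HARS2 and HARS. Among them were LARS2, MARS2, NARS2, TARS2 and YARS2 over their cytosolic partners, in both R1 and R2. AARS2 to AARS and IARS2 to IARS reached it in R2.

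TARS2 (chromosome 1, 150487364 to 150507609, plus strand), the mitochondrial threonine enzyme, was at 69.6, 68.4, 63.4 and 56.5 in R1 and at 130.2, 129.9, 139 and 127 in control. The highest R1 library was far below the lowest control library (log2 change -1.03 ± 0.09 SE, adjusted p = 1.5e-06). The cytosolic enzyme TARS did not pass the test (-0.12, adjusted p = 0.323). MARS2 (chromosome 2, 197705369 to 197708387, plus strand), a gene with a single exon, was at 42.4, 39.0, 41.0 and 43.3 in R1 and at 26.6, 23.3, 22.2 and 25.7 in control. It was 1.69-fold higher with no overlap (log2 change 0.75 ± 0.10 SE, adjusted p = 4.2e-05), while cytosolic MARS did not pass (0.16, adjusted p = 0.256). GARS (chromosome 7, 30594681 to 30634033, plus strand), which charges glycine in both compartments, was at 264, 250.4, 289 and 262 in R1 and at 439, 409, 458 and 441 in control. Each R1 library was lower than every control library (log2 change -0.71 ± 0.09 SE, adjusted p = 3.9e-05).

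LARS2 (chromosome 3, 45388506 to 45549421, plus strand), the mitochondrial leucine enzyme, was at 47.4, 35.9, 47.0 and 45.3 in R1 and at 75.5, 69.8, 64.5 and 63.0 in control (log2 change -0.63 ± 0.11 SE, adjusted p = 0.0005). YARS2 (chromosome 12, 32727490 to 32755902, minus strand), the mitochondrial tyrosine enzyme, was at 20.9, 20.1, 26.6 and 23.5 in R1 and at 32.4, 33.4, 35.4 and 33.1 in control (log2 change -0.56 ± 0.12 SE, adjusted p = 0.00168). Neither gene had an R1 library as high as its lowest control library, and their cytosolic partners LARS (0.13, adjusted p = 0.423) and YARS (0.21, adjusted p = 0.167) did not pass. EARS2, which charges glutamate in mitochondria, fell as well (-0.52, adjusted p = 0.00032), as did CARS (-0.43, adjusted p = 0.00616) and NARS (-0.49, adjusted p = 0.0138), the cytosolic cysteine and asparagine enzymes. Of 13 mitochondrial genome transcripts, which the mitochondrial enzymes help to translate, 12 fell in R1, beside 21.4% of all genes. In R2, where LARS2, YARS2 and EARS2 fell too, 0 of the 13 rose and 0 fell, beside 13.6% and 14.8% of all genes. A link between these transcripts and the synthetase genes was not tested.

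DARS (chromosome 2, 135906677 to 135986100, minus strand), the cytosolic aspartate enzyme, was at 116, 125, 125 and 131 in R1 and at 82.9, 85.2, 105 and 110.4 in control, with every R1 library above every control library (log2 change 0.38 ± 0.11 SE, adjusted p = 0.0141). Among the 8 enzymes of the multisynthetase complex 3 rose (EPRS, RARS and DARS) and 0 fell, beside 22.4% and 21.4% of all genes, with a median of 0.15. EPRS (chromosome 1, 219968601 to 220046658, minus strand) was at 315, 254, 294 and 323 in R1 and at 249, 235, 244 and 242 in control, and R1 replicate 2 was only just above the highest control library (log2 change 0.28 ± 0.09 SE, adjusted p = 0.0253). RARS, the arginine enzyme, and IARS2, the mitochondrial isoleucine enzyme, rose with overlapping ranges (0.49, adjusted p = 0.0177) and (0.29, adjusted p = 0.0447). The scaffold genes did not move together: AIMP1 rose (0.31, adjusted p = 0.0358), AIMP2 fell (-0.70, adjusted p = 0.00236) and EEF1E1 did not pass (-0.10, adjusted p = 0.706).

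FARSA (chromosome 19, 12922479 to 12934037, minus strand) was at 264, 290.2, 343 and 265 in R1, 310.3, 284, 357 and 360.4 in R2 and 309, 306, 311 and 275 in control, all overlapping (-0.06, adjusted p = 0.713). Its partner FARSB (chromosome 2, 222570536 to 222656337, minus strand) was at 149.6, 90.8, 193 and 191 in R1, 139, 127, 151 and 150.4 in R2 and 125, 112, 101 and 96.9 in control. FARSB was not called in R1 (log2 change 0.47 ± 0.19 SE, adjusted p = 0.0619), where replicate 2 lay below every control library and the other 3 above, nor in R2 (log2 change 0.38 ± 0.19 SE, adjusted p = 0.149), where all 4 libraries lay above control. Without R1 replicate 2 it was called in both (adjusted p = 0.00037 and 0.0172). With all 12 libraries kept it was also called in R1 by edgeR, by DESeq2 and with quantile scaling. In R2 it was also called with only R2 and control in the fit. The ratio of FARSA to FARSB was 2.48 to 3.08 in control and 2.23 to 2.40 in R2, with no overlap (exact permutation p = 0.0286, 0.0381 adjusted over only the 4 ratio tests named above). In R1 it was 1.77, 3.20, 1.78 and 1.39 in replicates 1 to 4 (exact permutation p = 0.143, adjusted 0.143). Replicate 2 lay above all control libraries and the other 3 below. WARS (chromosome 14, 100333788 to 100376805, minus strand), the tryptophan enzyme known to be induced by interferon-gamma, was at 94.0, 102, 94.2 and 84.5 in R1 and at 95.1, 98.3, 93.8 and 89.4 in control, with the groups overlapping (-0.01, adjusted p = 0.931). Of 9 measured interferon-gamma targets 5 rose and 0 fell in the same libraries, beside 22.4% and 21.4% of all genes.

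**Figure D2:**
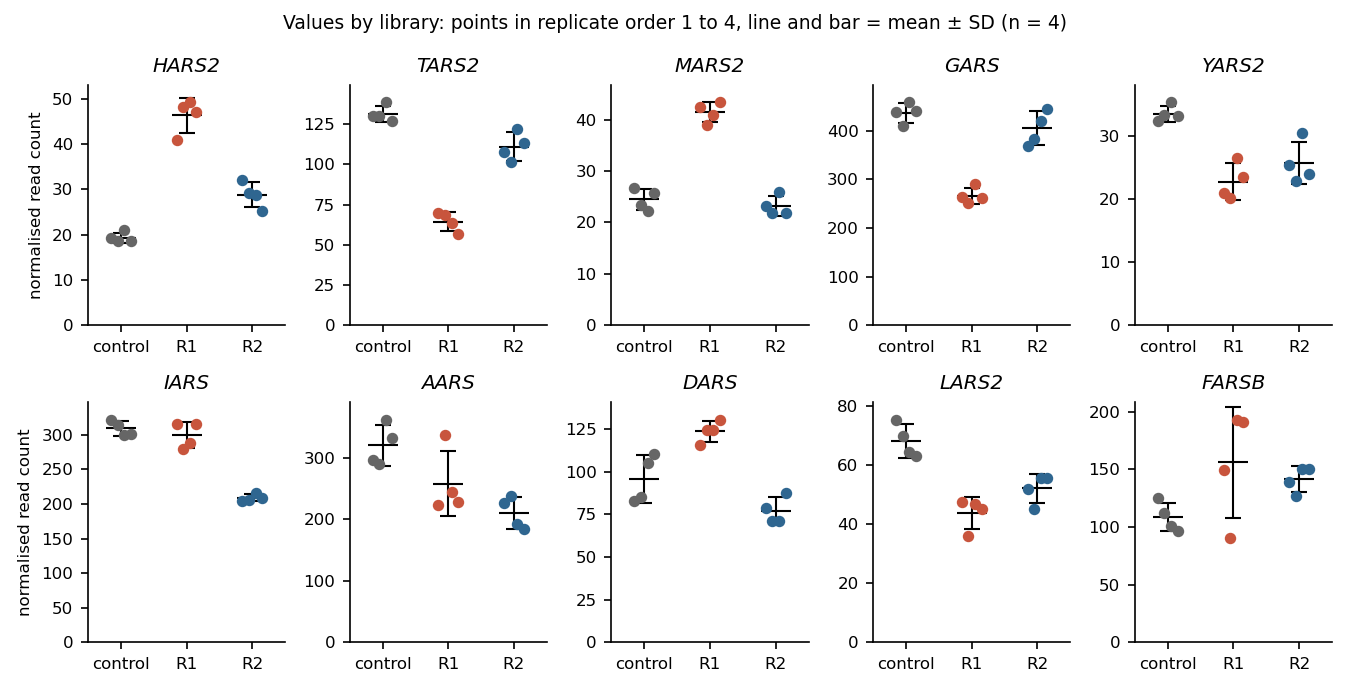
Normalised read count of 10 synthetase genes in each library (points in replicate order) with the mean ± SD of each group (n = 4), axes starting at 0. HARS2, TARS2, MARS2 and GARS separate R1 from control without overlap, IARS and AARS separate R2 from control, and FARSB shows R1 replicate 2 below the other R1 libraries.

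R1 replicate 2 held the lowest R1 value of 19 members and the highest of 6. Its values were not outliers by the check on single libraries given in the closing section. Among the calls that a single library decided were those of DARS (lost without control replicate 1 or 2, adjusted p up to 0.051), EPRS (without replicate 1 or 4 of R1, or 2 or 4 of control, up to 0.0767), HARS (without control replicate 4, 0.0561) and RARS (without replicate 3 or 4 of R1, or 3 of control, up to 0.0539). IARS2 was lost without any of 9 libraries, of all groups (R1 replicates 1, 3 and 4, R2 replicates 1, 3 and 4, control replicates 1, 2 and 3, up to 0.129). Calls were gained for AARS (adjusted p = 0.00507) and RARS2 (0.00207) without R1 replicate 2, for CARS2 without R1 replicate 3 (0.0375) and for YARS without R1 replicate 1 (0.0299). The remaining members, AARS2 (0.10, adjusted p = 0.574), FARS2 (0.03, adjusted p = 0.892), KARS (-0.17, adjusted p = 0.208), NARS2 (0.21, adjusted p = 0.188), whose ranges were nonetheless apart, PARS2 (-0.07, adjusted p = 0.684), QARS (0.09, adjusted p = 0.507), SARS (0.13, adjusted p = 0.316), SARS2 (0.25, adjusted p = 0.264), VARS (-0.04, adjusted p = 0.817), VARS2 (-0.01, adjusted p = 0.962) and WARS2 (0.10, adjusted p = 0.531), did not pass.

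In R2 the changes ran mainly downward, in the cytosolic enzymes for alanine, isoleucine, methionine and tryptophan and in 4 mitochondrial enzymes, with HARS2 the member that rose. Of the 37 genes 1 rose and 8 fell, or 24.3%, against 28.4% of all genes (13.6% up and 14.8% down). The cytosolic genes had 0 up and 4 down of 20 and the mitochondrial genes 1 up and 4 down of 17. The median log2 fold change was -0.11 over the members and 0.03 over all genes. No member changed more than 2-fold (7.28% of all genes did). Called with ranges that did not overlap were 9 of the 37 members, or 24.3%, against 26.1% of all genes. With only R2 and control in the fit 15 members were called, with 3 higher, where FARSB and QARS joined HARS2, and NARS, TARS2, VARS2 and WARS2 joined those that fell.

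AARS (chromosome 16, 70252295 to 70289543, minus strand) was at 226, 238, 193 and 185 in R2 and at 296, 289, 362 and 332 in control, with every R2 library below every control library (log2 change -0.60 ± 0.14 SE, adjusted p = 0.00476). IARS (chromosome 9, 92210207 to 92293756, minus strand) was at 205, 206, 216 and 209 in R2 and at 322, 314, 299 and 301 in control. The R2 values of IARS spanned a narrow range, all below control (log2 change -0.56 ± 0.08 SE, adjusted p = 0.00017). MARS (chromosome 12, 57475445 to 57517569, plus strand) was at 173, 149, 205 and 180.4 in R2 and at 244, 237, 237 and 224 in control, again with no overlap (log2 change -0.42 ± 0.11 SE, adjusted p = 0.0111). The exons of MARS share 62 bases, 2.13% of its own, with DDIT3 on the opposite strand, an ATF4-induced gene whose transcript was lower in R2 as well (-2.09, adjusted p = 0.00601). WARS was at 76.5, 78.1, 75.7 and 77.2 in R2, below all control libraries (log2 change -0.29 ± 0.08 SE, adjusted p = 0.0187). Of the 9 measured interferon-gamma targets 3 rose and 1 fell in R2, beside 13.6% and 14.8% of all genes.

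HARS2 was at 32.1, 29.1, 28.8 and 25.2 in R2, above the control values given earlier and below those of R1 (log2 change 0.56 ± 0.11 SE, adjusted p = 0.00113), while HARS, at 125, 130.0, 139 and 128, did not differ from control beyond the spread (0.03, adjusted p = 0.869). YARS2 was at 25.5, 22.9, 30.5 and 24.0 in R2 (log2 change -0.39 ± 0.12 SE, adjusted p = 0.0243) and LARS2 at 52.1, 45.2, 55.8 and 55.7 (log2 change -0.38 ± 0.11 SE, adjusted p = 0.0216). Both mitochondrial enzymes were below control in every R2 library, as was EARS2 (-0.26, adjusted p = 0.0413). YARS2, LARS2, EARS2 and HARS2 were each called in the same direction in R1 and R2, comparisons that share their control libraries. DARS, at 79.0, 71.5, 71.0 and 87.9 in R2, overlapped control (-0.30, adjusted p = 0.0584), and EPRS, at 239, 234, 257 and 263, did so too (0.03, adjusted p = 0.833).

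The ATF4 branch, a list of amino acid stress genes without synthetases, had 2 risen and 9 fallen of 24 measured in R2, with a median log2 fold change of -0.43, beside 13.6% and 14.8% of all genes. In R1 it had 6 risen and 3 fallen with a median of -0.07, beside 22.4% and 21.4% of all genes. ATF4 itself was at 249.95 ± 31.2 in R2, 355 ± 56.4 in R1 and 380.1 ± 64.5 in control (-0.60, adjusted p = 0.00694) for R2 and (-0.10, adjusted p = 0.613) for R1. EIF2AK4, chosen after its values were seen, codes for GCN2, the kinase that senses uncharged tRNA. It was at 100.03 ± 4.08 in R2, 167 ± 13.2 in R1 and 136 ± 8.29 in control, and fell in R2 (-0.44, adjusted p = 0.00193) and rose in R1 (0.29, adjusted p = 0.0156). AARS and IARS, which hold the C/EBP-ATF core, fell in R2, and GARS, which holds one too, did not pass there (-0.11, adjusted p = 0.4). YARS2, the fourth gene with a match, fell as given above. MARS, WARS, LARS2 and EARS2 fell in R2 as well and have promoters without a match.

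**Figure D3:**
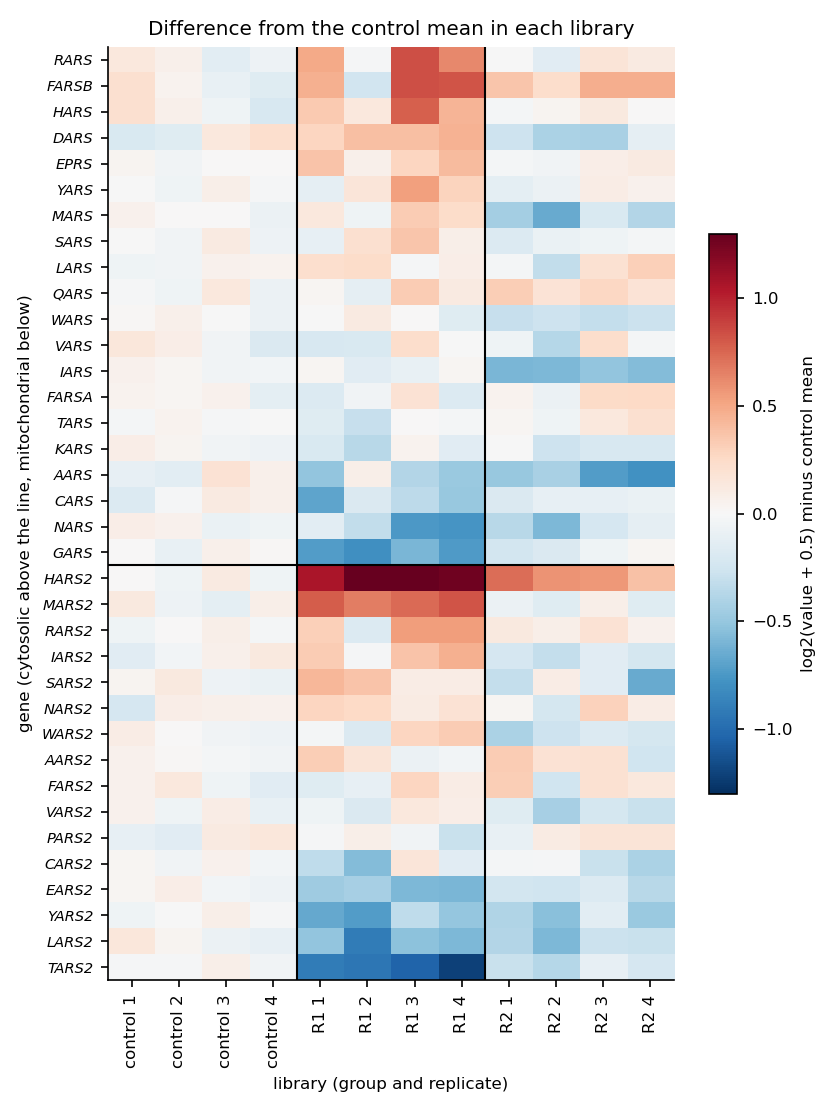
Difference of log2(value + 0.5) from the control mean for 36 genes (rows) in each library (columns), red higher and blue lower, cytosolic genes above the line. The R1 columns carry red for HARS2 and MARS2 and blue for TARS2, GARS and LARS2, the R2 columns blue for IARS, AARS and MARS, and R1 replicate 2 lacks the red of RARS and FARSB.

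The count of 9 calls in R2 fell to 5 without R2 replicate 2 and to 4 without control replicate 2. EARS2 was lost without any single R2 or control library (adjusted p up to 0.114). LARS2 was lost without R2 replicate 2 or control replicate 1 or 2 (up to 0.0667), YARS2 without replicate 1, 2 or 4 of R2, or 2, 3 or 4 of control (up to 0.067) and WARS without control replicate 2 (0.058). AARS, HARS2, IARS and MARS stayed called whichever single library was left out. DARS was called without replicate 4 of R2, or 1 of control (adjusted p as low as 0.0365), and VARS2 without R1 replicate 2 (0.0469). Among members that did not pass, TARS2 (-0.24, adjusted p = 0.0684), NARS (-0.32, adjusted p = 0.116), WARS2 (-0.27, adjusted p = 0.116) and VARS2 (-0.28, adjusted p = 0.0699) had R2 ranges below control, and QARS (0.24, adjusted p = 0.103) had its range above.

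R2 against R1 gave the test of the difference between the groups on the inhibitor diet. Of the 37 genes 4 were higher and 12 lower in R2, or 43.2%, against 46.8% of all genes (22.8% higher and 24.0% lower). Called with ranges that did not overlap were 12 of the 37 members, or 32.4%, against 37.5% of all genes. The cytosolic genes had 2 higher and 7 lower of 20, the mitochondrial genes 2 higher and 5 lower of 17. The median log2 fold change was -0.09 over the members and -0.00095 over all genes. Of the 8 enzymes of the multisynthetase complex 5 (DARS, EPRS, IARS, MARS and RARS) were lower in R2 and 0 higher, with a median of -0.35. The 12 cytosolic enzymes outside it had 2 higher (CARS and GARS) and 2 lower (HARS and WARS), with a median of -0.05. The difference between these 2 sets was not tested.

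MARS2 was at 23.1, 21.8, 25.8 and 21.9 in R2, all below the R1 values of 39.0 to 43.3, and did not pass against control (log2 change -0.83 ± 0.10 SE, adjusted p = 1.9e-05 for R2 against R1). TARS2 was at 108, 101, 122 and 113 in R2, all above R1 (log2 change 0.78 ± 0.09 SE, adjusted p = 1.9e-05), and GARS at 369, 383, 421 and 445, all above R1 (log2 change 0.60 ± 0.09 SE, adjusted p = 0.00016). For these 3 genes R2 against control did not pass the threshold, although the R2 libraries of TARS2 all lay below control. DARS was lower in every R2 library than in any R1 library (log2 change -0.68 ± 0.11 SE, adjusted p = 0.00024), and so were HARS2 (log2 change -0.68 ± 0.11 SE, adjusted p = 0.00015) and MARS (log2 change -0.58 ± 0.11 SE, adjusted p = 0.00072), which was at 259, 227, 296 and 279 in R1. IARS (-0.52, adjusted p = 0.00019) and IARS2 (-0.51, adjusted p = 0.00152), the isoleucine enzymes of both compartments, were lower in R2 as well. The other calls were CARS (0.31, adjusted p = 0.0337) and EARS2 (0.26, adjusted p = 0.0262), higher, and EPRS (-0.25, adjusted p = 0.0417), HARS (-0.39, adjusted p = 0.0232), RARS (-0.45, adjusted p = 0.0239), SARS2 (-0.50, adjusted p = 0.0276), WARS (-0.28, adjusted p = 0.0138) and WARS2 (-0.37, adjusted p = 0.0229), lower. SARS2, with 25 to 124 reads a library, shares 83.1% of its exon bases with other genes, or 67.4% with AC011455.2 on its own strand and 15.8% with MRPS12 on the other, so its reads are uncertain.

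The count of 16 fell to 10 without R2 replicate 1. Without a single library the calls of CARS (R1 replicate 1 or 4, R2 replicate 2, 3 or 4, adjusted p up to 0.108), EARS2 (R1 replicate 4, R2 replicate 1 or 3, up to 0.0789), HARS (R1 replicate 3, R2 replicate 1 or 4, up to 0.0638), RARS (R1 replicate 3 or 4, R2 replicate 1 or 2, up to 0.0751), SARS2 (R1 replicate 1 or 2, R2 replicate 1 or 4, up to 0.0958) and WARS2 (R1 replicate 3 or 4, R2 replicate 1, up to 0.0759) were lost. EPRS was lost without any library but R1 replicate 2 and R2 replicate 4 (up to 0.116). Calls were gained without R1 replicate 2 for FARSB (adjusted p = 0.0406), RARS2 (0.0103) and VARS2 (0.0212), without R1 replicate 1 for SARS (0.0261) and YARS (0.0237), and without R2 replicate 2 for LARS2 (0.0402).

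The other genes of tRNA charging and supply, are given by counts, to be read against the genes called over the whole table, 22.4% up and 21.4% down in R1 and 13.6% up and 14.8% down in R2. Of the 4 mitochondrial charging partners (GATB, GATC, QRSL1 and MTFMT, which formylates the initiator tRNA) 0 rose and 1 fell in R1, and 1 rose and 1 fell in R2. Of 10 measured charging-related and editing genes 3 rose and 2 fell in R1, and 0 rose and 1 fell in R2. Of 22 genes for RNA polymerase III and its factors, which transcribe tRNA genes, R1 had 4 up and 4 down, with a median of 0.11, and in R2 1 rose and 0 fell, with a median of 0.04. Of 17 genes for processing, splicing, modification or export of tRNA 3 rose and 2 fell in R1, and 1 rose and 1 fell in R2. Of 9 mitochondrial translation factors 1 rose and 1 fell in R1, and 0 rose and 3 fell in R2. MYC, a known regulator of translation genes, was listed with MAX, MXD1, MXD4, MXI1 and MNT. Of these 6 measured genes 0 rose and 3 fell in R1 (MYC, MAX and MNT), and 0 rose and 2 fell in R2 (MXD1 and MNT). MYC itself fell in R1 (-0.92, adjusted p = 0.00542) and did not pass in R2 (-0.04, adjusted p = 0.921).

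Levels of different synthetase genes were ranked and summed per kilobase of merged exon length (GENCODE 29, which may differ from the authors' annotation). The ratios of HARS2 to HARS and of FARSA to FARSB above are not scaled by length and serve only to compare groups. Per kb the ratio of FARSA to FARSB in control was 3.99 to 4.95. In control GARS stood highest at 165 ± 7.71 per kb, then FARSA at 144 ± 8.17 and KARS at 126 ± 6.21, and these 3 were also the highest in R1 and R2. In R1 GARS, at 100.5 ± 6.18, ranked below FARSA (139 ± 17.6) and KARS (113 ± 13.2), though the libraries of GARS and KARS overlapped. The lowest cytosolic gene in control was WARS at 22.2 ± 0.865 per kb. The highest mitochondrial genes in control were TARS2 at 47.1 ± 1.79 and CARS2 at 46.2 ± 1.59 per kb, which do not differ beyond their spread, and in R1 TARS2 stood at 23.1 ± 2.13. HARS2 went from rank 32 of 37 per kb in control to rank 25 in R1 and 30 in R2. The summed level per kb of the cytosolic genes was 5.42 to 5.68 times that of the mitochondrial genes in the control libraries. It was 5.53 to 6.15 times in R1 and 5.48 to 6.34 times in R2, with overlap. The cytosolic sum includes GARS and KARS, which serve both compartments. The summed level per kb of the 17 mitochondrial genes was 258 to 267 in control, 216 to 262 in R1, which overlapped control, and 223 to 244 in R2, which did not.

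The 37 genes lie on 14 chromosomes, and some changes went along with those of their chromosomal neighbours, taken as measured genes that start within 1 Mb. Around TARS2 in R1 23 of 44 neighbours fell and 5 rose (median -0.42), beside 21.4% and 22.4% of all genes. Around YARS2 4 of 5 fell and 0 rose (median -1.07), around NARS 5 of 5 fell (-0.66), around CARS 7 of 14 fell and 2 rose (-0.40), and around EARS2 5 of 9 fell and 0 rose (-0.47). EPRS and IARS2 lie close together on chromosome 1, so that their windows overlap, and around each 5 of 8 rose and 1 fell (0.32). Each of these genes is itself among the 5 risen neighbours of the other. Around MARS2 3 of 8 rose and 0 fell (0.30). Neighbours were mixed or mostly not called for other changed genes. Around HARS2 10 of 29 rose, HARS among them, and 5 fell (-0.04). Around GARS 1 of 8 rose and 2 fell (-0.14), and around LARS2 1 of 15 rose and 3 fell (0.02). In R2 13 of 30 neighbours of MARS fell and 1 rose (-0.31), and 4 of 9 of those of IARS fell and 0 rose (-0.35). Of all genes 14.8% fell and 13.6% rose there. Around AARS 2 of 21 fell and 0 rose (-0.12), around EARS2 0 of 9 were called (-0.09), and around HARS2 6 of 29 rose and 3 fell (-0.04). Around LARS2 1 of 15 rose and 2 fell (0.02), around WARS 2 of 6 rose and 1 fell (0.19), and around YARS2 1 of 5 rose and 1 fell (0.03).

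**Figure D4:**
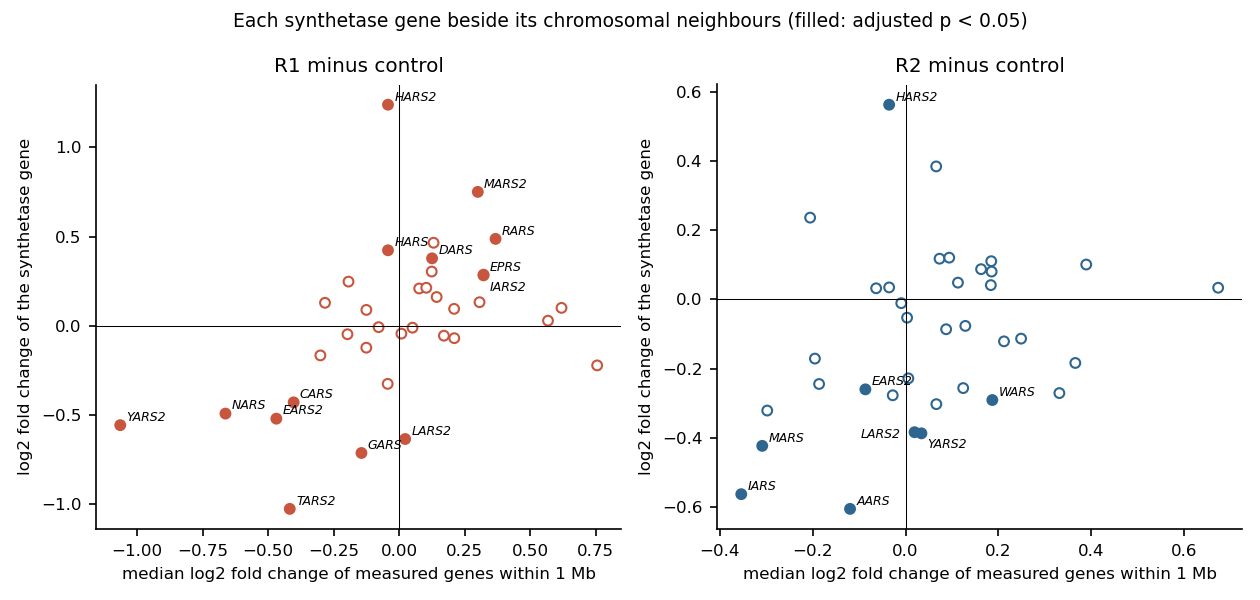
Log2 fold change of 36 synthetase genes against the median of the measured genes that start within 1 Mb, for R1 (left) and R2 (right) against control, filled at an adjusted p under 0.05. TARS2, NARS, YARS2, CARS and EARS2 lie with falling neighbours in R1, while HARS2 rises where the median of its neighbours is near 0.

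Across the 37 members the change and the neighbours' median had Pearson r = 0.44 in R1 (Spearman rho 0.48) and 0.30 in R2 (0.31). Across 11251 genes with at least 3 neighbours the values were 0.27 (0.31) and 0.35 (0.36). Genes are not independent replicates, and the points share libraries and, for near genes, neighbours. Some members are also neighbours of one another. Of the 15 members called in R1, 11 had the sign of their neighbours' median, or 4 of the 9 called in R2. Over all called genes with enough neighbours the shares were 68.3% and 72.6%.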

How the data were processed

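RNA extracted with a Qiagen RNeasy mini kit was sequenced after preparation with TruSeq v2, per the labels. The submitters' processing notes name STAR, edgeR and GRCh38. Versions, annotation, counting and scaling settings are not given in the sources used here. Each deposited file holds a normalised signal value for each of 12931 rows (12929 symbols). Dividing by the value of 1 read gave whole reads for 100% of values, within 0.001 reads, in each library. Every listed gene reached 1 CPM of these reads in at least 4 libraries, and no further filter was applied.

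The test was limma 3.58.1 in R 4.3.3 on log2(value + 0.5) (empirical Bayes with a mean-variance trend). All 12 libraries entered a single fit with 3 group means, with two-sided p-values adjusted by Benjamini-Hochberg over all 12931 genes. A fold is the ratio of 2 group means. The script was tested on simulated data. Alternatives were TMM and quantile scaling, pseudocounts of 0.1 and 2, a mean of at least 1 or 5, edgeR 4.0.16 and DESeq2 1.42.0 on recovered reads, only the groups compared, a replicate block, each library left out, and, chosen after seeing the data, R1 replicate 2 and R2 replicate 3 left out together. On the recovered reads edgeR called 5645 (R1 and control), 3564 (R2 and control) and 5988 genes (R2 and R1), beside 5667, 3667 and 6053 with limma.

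Members, 16 lists and the naming rule were chosen with earlier results of these data known. Values in every library are given for the 6 largest called changes without overlap in each comparison, for WARS, EPRS, FARSA, FARSB, HARS and HARS2, and for pairs of a cytosolic and a mitochondrial enzyme called in opposite directions. Positions come from GENCODE 29 (GRCh38) and upstream sequences from RefSeq (GRCh38.p14), where 30 members matched, 14 of them through an older symbol. Of the 37 genes, 1 enters every count and fit but is not reported here by name, and the figures leave it out.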

Additional observations from a re-analysis of the deposited data

Results flagged for a closer look

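Each of the 37 genes was checked in each of the 3 groups of 4 libraries for a library far from the other 3, which makes 111 checks, and chance flags about 1 in 20 of them. There were 2 such values, 1.8% of the checks. FARSA in control replicate 4 was at 275.1, where the other control libraries held 306 to 311.4. NARS2, the mitochondrial asparagine enzyme, in control replicate 1 was at 15.95, where the other control libraries held 19.38 to 19.86. Neither gene was called in any comparison.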

How the results depend on the processing

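Of 40 calls on members over the 3 comparisons, 21 held under all 23 alternatives, and 0 changed direction. All 40 held with edgeR, with DESeq2, with TMM scaling, with both pseudocounts and with the replicate block, and 4 were lost with quantile scaling. Among values of either kind, 59 of 2550 had the opposite sign under an alternative, none of them called. With only the 2 groups compared in the fit, the count of members called for R2 against control went from 9 to 15 and that for R2 against R1 from 16 to 10. The cause was not tested. Leaving out single libraries gave 4 to 11 for R2 against control and 10 to 18 for R2 against R1, and 12 to 18 for R1 against control, beside 15. Over single libraries 18 calls were lost at least once and 14 values were called only without some library. Without R1 replicate 2 and R2 replicate 3 together the counts were 17, 10 and 16. The replicate numbers did not pair the libraries: same-numbered libraries of different groups had correlations of their deviations of -0.31 to 0.39, over 0.1 in 5 of 12 pairs, and 3 of 12 libraries were closest to their own number. With the replicate block 15, 10 and 17 members were called, against 15, 9 and 16. A mean of at least 5 leaves out SARS2, for which depth is the limit.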
